A study of Mus musculus with 15 samples.

Results

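Transcript levels of 10 mitochondrial chaperones and proteases, of 39179 genes counted, were followed in the skeletal muscle of 15 C57BL/6 mice. The genes were listed by function, and the rule used no measured value, though earlier results of these data were known when they were chosen. They cover the folding machines of the mitochondrial matrix (Hspd1, Hspe1, Hspa9, Trap1), the matrix proteases (Lonp1, and Clpp with its unfoldase Clpx) and the proteases of the inner membrane and the intermembrane space (Yme1l1, Afg3l2, Htra2). The mice were wild-type (WT) or carried the exchange V338Y in Mrps5, which encodes a protein of the small mitochondrial ribosomal subunit. The knock-in was homozygous and in the germline, so that every cell type of the muscle carried it. There were 4 WT and 4 V338Y mice of 3 months and 3 WT and 4 V338Y mice of 19 months, and RNA was taken from quadriceps without further treatment. All 10 genes passed the filter on low counts in every comparison.

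Most mitochondrial proteins are made in the cytosol and cross both membranes unfolded. HSPA9, the mitochondrial HSP70, pulls them into the matrix, and the HSPD1 barrel closed by its HSPE1 lid gives them a chamber to fold in. Proteins that fail are degraded by AAA+ proteases: LONP1 and CLPXP in the matrix, the AFG3L2 complex on the matrix side of the inner membrane and YME1L1 on its other side, where the serine protease HTRA2 is also found. Transcription of these genes is known to rise in cultured cells when unfolded proteins collect in mitochondria, a response in which ATF4, ATF5 and the CHOP factor encoded by Ddit3 take part. A misreading mitochondrial ribosome makes altered subunits of the respiratory chain, which may add to the proteins that this system handles. Protein was not measured here.

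Total counts ran from 8250653 to 18968132 per mouse, and the 10 genes received between 73 (Htra2) and 8517 (Hspa9) counts in a mouse. Levels are given as CPM (counts scaled to a library of fixed size) after TMM scaling, which sets the libraries on one scale through the genes that change least. The labelled tissue was borne out by its markers: 8 genes of striated muscle fibers summed to between 169168 and 329678 CPM, and none was at 0 in any mouse. The ages also differed in sex-linked transcripts. Xist stood between 501.6 and 626 CPM at 19 months and at no more than 0.586 CPM at 3 months, whereas the Y-linked Ddx3y stood between 166 and 201 CPM at 3 months and at no more than 0.0813 CPM at 19 months. The study's methods describe the young mice as female, against these transcripts. Every difference between the ages given here is therefore also a difference between mice that differ in sex-linked transcripts, and age and sex cannot be told apart. Mrps5 itself was at 23.7 ± 1.89 CPM (SD, n = 4) in WT and 25.9 ± 1.24 CPM (SD, n = 4) in V338Y mice of 3 months, and at 17.5 ± 1.91 (n = 3) and 17.4 ± 1.68 CPM (n = 4) at 19 months. An exchange of 1 codon need not alter that level, so that Mrps5 expression is no check of the genotype.

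Hspd1 and Hspe1 lie head to head on chromosome 1 (GRCm38, 55077835 to 55088243 on the minus strand and 55088132 to 55091307 on the plus strand), and their annotated 5′ ends overlap by 112 bases on opposite strands. Whether the counting used the strand is not given in the sources used here, so reads from those bases could not be told apart if it did not. A stretch close to these ends is shown because this pair had the lowest ratios of 19 to 3 months among the 10 genes in both genotypes. For Hspd1 in V338Y mice the margin was narrow. The RefSeq table (GRCm38.p6) held a promoter of 300 bases for 7 of the 10 genes, from 250 bases before to 50 after each start, and for Hspd1 it held 2. On either strand, TTCNNGAA occurred in 8.52% and GAANNTTC in 7.86% of all 32851 promoters in the table. A chain in which 2 copies of TTCNNGAA start 10 bases apart with GAANNTTC between, 4 heat shock units in a row, was present in 5 of them (0.0152%). Chains of intermediate length were not searched for, so the 5 are not a count of all heat shock elements. Of these 5, 2 are overlapping windows, that of Hspe1 (start 55088148) and that of the inner Hspd1 start, 55087932. The window of the outer Hspd1 start, 55088243, lacked the chain, which lies inside the annotated Hspd1 gene. Below, the chain is in capitals within its 30 bases on the plus strand, chr1:55088053-55088082. Its 3′ part also holds CCGGAAG, a GABP motif found in 8.86% of promoters.
Hspe1 and Hspd1: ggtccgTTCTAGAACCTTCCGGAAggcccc

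None of the other 5 genes with a promoter in the table (Lonp1, Clpp, Clpx, Trap1, Yme1l1) had the chain. Chains of intermediate length were not searched for in these genes either. A lone TTCNNGAA lay in Clpp, 33 bases after its start. Other motifs differed from gene to gene. Lonp1 had an E-box (CACGTG, 7.15% of promoters) 36 bases before the start, and Clpx had an NRF1 motif (GCGCATGCG, 1.75%, here on the other strand) with a CCAAT box (37.4%) further upstream, at positions -87 and -136. GABP motifs occurred at 3 places in Yme1l1, at -73, -19 and 3, and the amino acid response element TTGCATCA, bound by ATF4 and CHOP in many stress genes (0.895% of promoters), was in none of the 7. These matches describe the letters in the windows and were not related to binding.

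By length, in the mean of all mice, the chaperones stood above the proteases. In old WT mice, however, Hspe1 was at 18.2 and Clpx at 22.7 CPM per kilobase of exon. In old V338Y mice they were at 17.9 and 17.6. Averaged over the 15 mice, Hspa9 was at 100.3 CPM per kilobase of exon, Hspd1 at 60.4, Trap1, the mitochondrial HSP90, at 42.6 and Hspe1 at 29.7. Among the proteases, Clpx led with 24.02 CPM per kilobase, ahead of Lonp1 with 16.7, Yme1l1 with 15.6 and Clpp with 13.1. Afg3l2 with 5.22 and Htra2 with 3.22 CPM per kilobase were the lowest of the 10. Lonp1 and Yme1l1 were neighbours whose ranges overlapped in WT mice of 3 months (17.4 to 18.7 against 17.0 to 18.6 CPM per kilobase).

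The folding chamber had the lowest estimates of 19 months relative to 3 months, for Hspd1 in V338Y mice by a narrow margin. Hspe1, the lid, measured 56.0, 60.9, 61.0 and 77.4 CPM in the 4 WT mice of 3 months, and 30.2, 26.6 and 23.7 CPM in the 3 WT mice of 19 months. In V338Y mice it measured 57.8, 54.6, 48.2 and 54.3 CPM at 3 months and 28.3, 27.5, 22.3 and 27.2 CPM at 19 months. Every mouse of 19 months was thus below every mouse of 3 months, whatever its genotype. The fitted log2 fold change was -1.23 ± 0.13 (SE; edgeR quasi-likelihood test, adjusted p = 0.000333) in WT and -1.003 ± 0.10 (adjusted p = 0.000124) in V338Y mice. Hspd1, the barrel, measured 200.6, 208.7, 190.2 and 248.0 CPM in young WT mice and 119.8, 108.5 and 113.1 CPM in old WT mice. The V338Y mice gave 197.6, 173.6, 188.3 and 177.5 CPM at 3 months and 118.4, 117.3, 89.0 and 144.7 CPM at 19 months. Again the ages did not overlap in either genotype, and the log2 fold changes were -0.88 ± 0.11 (adjusted p = 0.00057) in WT and -0.63 ± 0.13 (adjusted p = 0.00406) in V338Y mice. The V338Y value was close to those of Clpp (-0.59 ± 0.12) and Yme1l1 (-0.58 ± 0.09) in the same mice.

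The HSP70 and HSP90 of the matrix fell as well, by different amounts. Hspa9 measured 519.6, 555.0, 561.9 and 553.6 CPM in young WT mice and 299.8, 312.4 and 391.1 CPM in old ones. V338Y mice had 499.3, 515.4, 510.1 and 438.9 CPM at 3 months and 319.4, 309.5, 270.9 and 428.9 CPM at 19 months. The ages were apart in both genotypes, though in V338Y mice only just, since old mouse 5 was close to young mouse 4. The log2 fold change was -0.69 ± 0.11 (adjusted p = 0.00216) in WT and -0.54 ± 0.14 (adjusted p = 0.0116) in V338Y mice. Trap1 ranged from 114.7 to 122.8 CPM in young and from 91.2 to 101.0 CPM in old WT mice, and from 115.7 to 135.6 CPM in young and from 91.1 to 107.3 CPM in old V338Y mice. These ranges did not overlap, and the fall was small, with log2 fold changes of -0.29 ± 0.08 (adjusted p = 0.0185) and -0.34 ± 0.09 (adjusted p = 0.0144).

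**Figure D1:**
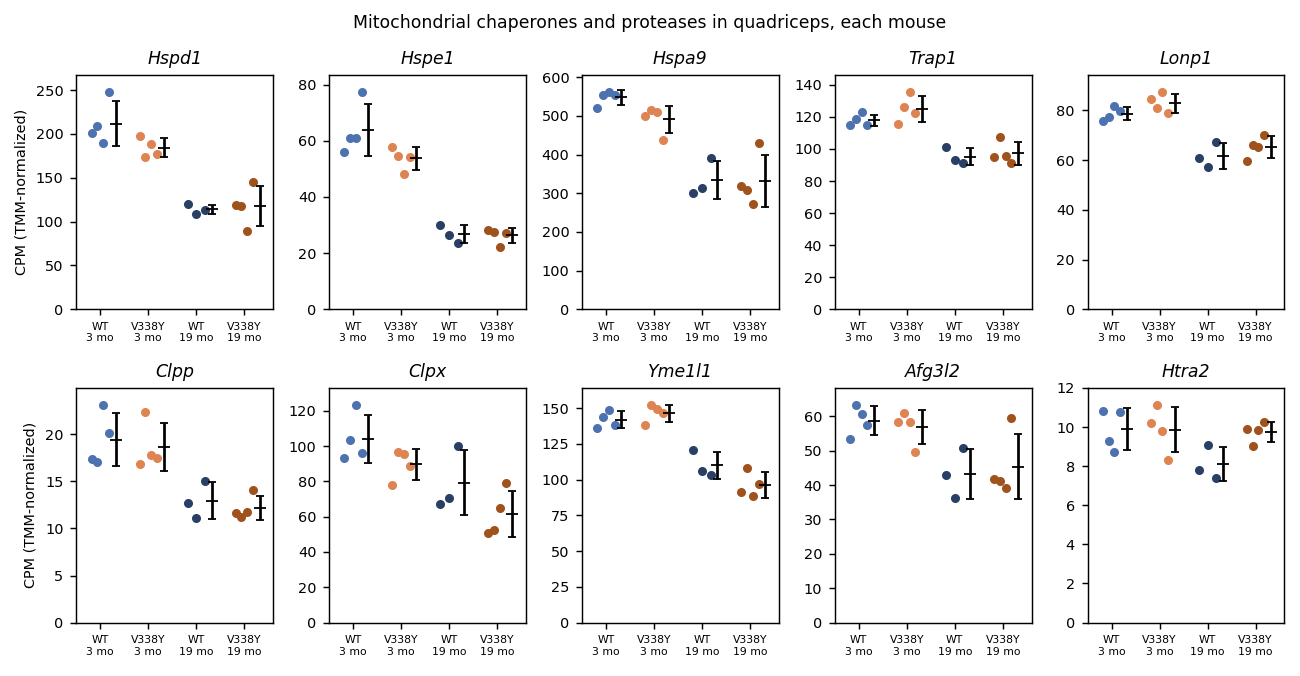
CPM after TMM scaling (vertical axes, each from 0) of the 10 genes in each mouse (dots) of the 4 groups, with the mean and SD of a group as a dash and bars. Hspd1, Hspe1, Hspa9, Trap1, Lonp1, Clpp and Yme1l1 were lower in every mouse of 19 months than in any mouse of 3 months of the same genotype. The ages overlapped for Htra2 and Clpx in both genotypes and for Afg3l2 in V338Y mice.

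Of the matrix proteases, Lonp1 was the steadiest within a group. It measured 75.9, 77.3, 81.7 and 79.9 CPM in young and 60.7, 57.1 and 67.2 CPM in old WT mice, and 84.6, 80.8, 87.5 and 78.9 CPM in young and 59.5, 66.1, 65.2 and 70.0 CPM in old V338Y mice. The ages were separate in both genotypes and the fall was about equal, at -0.33 ± 0.09 (adjusted p = 0.016) in WT and -0.32 ± 0.08 (adjusted p = 0.0102) in V338Y mice on the log2 scale. Clpp, the peptidase of CLPXP, measured between 17.0 and 23.1 CPM in young and between 11.1 and 15.04 CPM in old WT mice, and between 16.9 and 22.4 CPM and between 11.2 and 14.1 CPM in V338Y mice. Its log2 fold change was -0.56 ± 0.14 (adjusted p = 0.015) in WT and -0.59 ± 0.12 (adjusted p = 0.0041) in V338Y mice. Clpx, the unfoldase that feeds it, varied more: 93.0, 103.2, 123.1 and 96.0 CPM in young WT mice stood against 67.3, 70.4 and 100.2 CPM in old ones. The V338Y mice had 77.8, 96.8, 95.7 and 88.6 CPM at 3 months and 50.5, 52.6, 64.7 and 78.8 CPM at 19 months. In both genotypes mouse 5 of 19 months reached into the range of the young mice. Clpx passed the test in V338Y mice (-0.51 ± 0.15, adjusted p = 0.0182) and missed it in WT mice (-0.37 ± 0.16, adjusted p = 0.0951). Without old mouse 5 it was at -0.58 in WT mice (adjusted p = 0.00959), and without young mouse 2 or 3 the call in V338Y mice was lost (-0.48, adjusted p = 0.0517, and -0.49, adjusted p = 0.0503).

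The inner-membrane proteases and Htra2 did not move alike. Yme1l1 measured 136.3, 144.2, 149.1 and 138.4 CPM in young and 120.7, 106.4 and 103.2 CPM in old WT mice, and 138.1, 152.1, 149.4 and 146.3 CPM in young and 91.6, 108.4, 88.2 and 96.9 CPM in old V338Y mice. Its ages were separate, with log2 fold changes of -0.35 ± 0.08 (adjusted p = 0.0126) in WT and -0.58 ± 0.09 (adjusted p = 0.000938) in V338Y mice. Afg3l2 measured 53.4, 63.3, 60.6 and 57.6 CPM in young and 42.9, 36.1 and 50.8 CPM in old WT mice, and fell by 0.42 ± 0.12 on the log2 scale (adjusted p = 0.0254). In V338Y mice it measured 58.5, 60.9, 58.3 and 49.7 CPM at 3 months and 41.8, 41.2, 39.0 and 59.5 CPM at 19 months, so that old mouse 5 lay among the young mice and the test was missed (-0.30 ± 0.14, adjusted p = 0.0959). Without that mouse the difference was -0.44 (adjusted p = 0.00425). Htra2 ranged from 8.73 to 10.8 CPM in young and from 7.40 to 9.09 CPM in old WT mice, and from 8.33 to 11.1 CPM and from 9.04 to 10.3 CPM in V338Y mice. It passed the test in neither genotype, with -0.27 ± 0.14 (adjusted p = 0.157) in WT and 0.01 ± 0.11 (adjusted p = 0.953) in V338Y mice.

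Counted together, 8 of the 10 genes fell between 3 and 19 months in WT mice and 8 of 10 in V338Y mice, and none rose. Of all genes tested, 17.8% were called lower and 18.3% higher in WT mice, and 22.5% lower and 24.4% higher in V338Y mice. The 10 genes had a median log2 fold change of -0.39 in WT and -0.53 in V338Y mice, against 0.02 and 0.07 over all genes. Ages did not overlap for 8 of the 10 genes in WT and for 7 of 10 in V338Y mice, all with the older mice lower, as held for 22.4% and 22.6% of all genes. Both counts depended on the libraries and their scaling, while no called gene turned direction. Without WT mouse 4 of 19 months the count in WT was 4 in place of 8, as Trap1, Lonp1, Clpp and Afg3l2 then had adjusted p-values between 0.0598 and 0.094 in edgeR. Afg3l2 was also lost without WT mouse 2 of 19 months (adjusted p = 0.0588) or without WT mouse 2 or 3 of 3 months (0.0609 and 0.0603), and Trap1 without WT mouse 3 of 3 months (0.0535). With plain total counts in place of TMM, an alternative added after the data were seen, it was 5 of 10 in WT and 2 of 10 in V338Y mice (Hspe1 and Yme1l1), and the median of all genes moved to 0.11 and 0.36. Changing the scaling moves every gene by nearly the same amount. The distance of the 10 genes from that median, -0.41 in WT and -0.60 in V338Y mice, could therefore hardly differ and is no check.

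**Figure D2:**
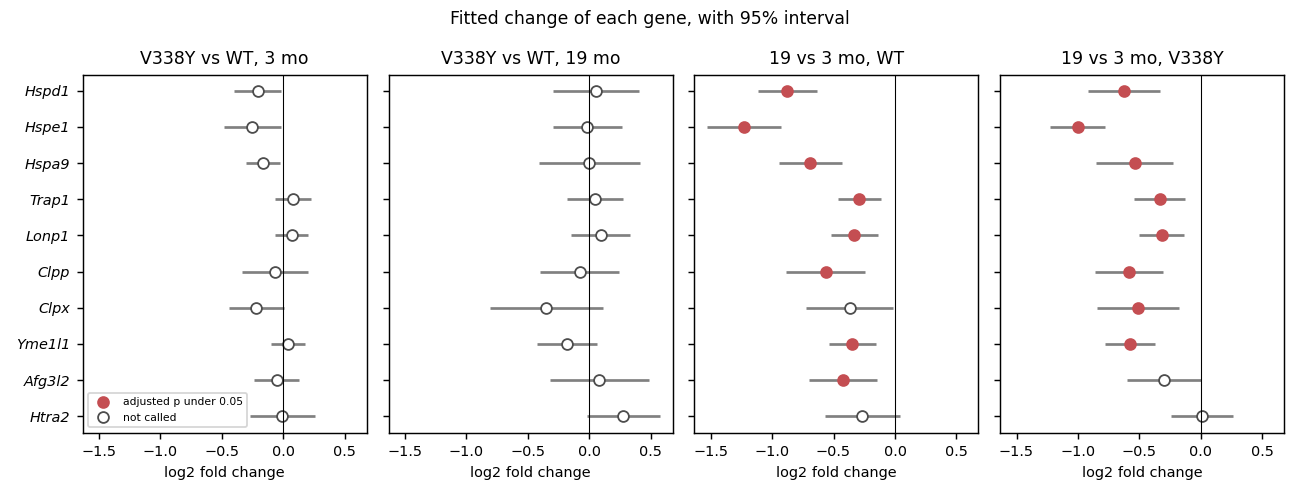
Fitted log2 fold change (horizontal axes) of each gene with its 95% interval for V338Y against WT at 3 and 19 months and for 19 against 3 months in WT and V338Y mice, with filled dots where the adjusted p was under 0.05. Filled dots appear in the age panels, 8 in each, and all lie below 0.

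Mouse 5 of the 19 months groups stood apart in both genotypes. It had the highest Hspa9, Clpx, Clpp, Afg3l2 and Lonp1 among the old mice of its genotype, but the lowest Trap1 (91.2 CPM in WT and 91.1 CPM in V338Y). WT mouse 5 also had the lowest Hspe1 (23.7 CPM), Yme1l1 (103.2 CPM) and Htra2 (7.40 CPM) of the old WT mice. V338Y mouse 5 had the highest Hspd1 (144.7 CPM) and Htra2 (10.3 CPM) of the old V338Y mice. In the same mice, 8 markers of slow muscle fibers summed to 6151 CPM in WT and 8854 CPM in V338Y, against 486 and 1042 CPM in the other old WT mice and between 791 and 1655 CPM in the other old V338Y mice. V338Y mouse 5 also held 605 CPM over 8 neutrophil markers, against 4.29 to 27.7 CPM in the other 3. The fiber markers summed to between 270150 and 329678 CPM at 3 months and to between 169168 and 290086 CPM at 19 months. With mouse 5 left out, 9 of 10 genes fell in WT and 9 of 10 in V338Y mice. Markers of other cells differed between the ages as well. Of 8 macrophage markers 4 rose in each genotype (209.2 to 389.0 CPM in sum at 3 months, 307.3 to 443.8 CPM at 19 months), of 5 endothelial markers 2 in WT and 3 in V338Y mice (148.2 to 187.4 against 200.5 to 333.1 CPM), and of 4 Schwann cell markers 2 and 4 (16.7 to 25.3 against 27.6 to 72.6 CPM). In V338Y mice 7 neutrophil and 3 adipocyte markers rose too, and in WT mice 2 adipocyte and 2 erythroid markers fell. Of 8 slow fiber markers 6 rose in WT and 0 in V338Y mice, and of 8 fiber markers 3 and 5 fell. The estimate was higher at 19 months for 7 of the 8 slow fiber markers in each genotype. The interaction term called none of them (lowest adjusted p = 0.813), so 6 and 0 do not show a genotype difference. Young mice had 996 to 1360 CPM in sum in WT and 1334 to 2228 CPM in V338Y, and only mouse 5 exceeded these ranges. Among B and plasma cell markers 1 of 1 tested rose in WT and 4 of 5 in V338Y mice. Of 5 fibroblast markers 2 fell in each genotype and 1 rose in WT mice. Of 3 satellite cell markers 1 fell in V338Y mice. Over all genes, 18.3% rose and 17.8% fell in WT, and 24.4% rose and 22.5% fell in V338Y mice. The part of fiber type and of the other cells in the remaining values was not tested, and in whole muscle fewer cells of a type cannot be told apart from less RNA per cell.

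The genotype comparison asks whether a misreading mitochondrial ribosome goes with altered expression of the system that handles misfolded mitochondrial proteins. At 3 months, none of the 10 genes was called between V338Y and WT mice, where 0.0750% of all genes were. Hspa9, Hspe1 and Hspd1 were lower in V338Y mice at an unadjusted p under 0.05, as were 4.67% of all genes. The log2 fold change of Hspa9 was -0.16 ± 0.06 (adjusted p = 0.469), and its 4 V338Y mice, with 438.9 to 515.4 CPM, all lay below the 4 WT mice, with 519.6 to 561.9 CPM, as held for 2.03% of all genes. Hspe1 differed by -0.25 ± 0.11 (adjusted p = 0.488) and Hspd1 by -0.21 ± 0.09 (adjusted p = 0.488), and in both cases the groups overlapped. Without WT mouse 4 these differences were -0.15 and -0.12. Clpx was at -0.22 ± 0.10 (adjusted p = 0.526), and the other 6 genes were between -0.07 and 0.08. The 95% intervals of the 10 log2 fold changes reached from -0.48 at the lowest (Hspe1) to 0.26 at the highest (Htra2). Slow fiber markers were also unequal here, with 1334 to 2228 CPM in V338Y against 996 to 1360 CPM in WT mice in sum. At an unadjusted p under 0.05, 6 of the 8 were higher in V338Y mice, as were 5.03% of all genes, and none was after adjustment. All 8 adipocyte markers had a lower estimate in V338Y mice (median -0.88), with 302.9 to 809.7 CPM in sum against 390.1 to 1533 CPM in WT mice, and none was called. The part of either marker group in the chaperone values was not tested.

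Nor was any of the 10 genes called at 19 months, where 0.0434% of all genes were, and none had an unadjusted p under 0.05 in edgeR (1 did with mouse number as a block, and DESeq2 called none). Hspd1, Hspe1 and Hspa9, the trio with an unadjusted p under 0.05 at 3 months, were at 0.06 ± 0.15, -0.01 ± 0.12 and 0.00 ± 0.18 on the log2 scale. Clpx was at -0.35 ± 0.20 (adjusted p = 0.624), a value that moved to -0.14 without WT mouse 5, and Htra2 was at 0.28 ± 0.13 (adjusted p = 0.564). Htra2 measured 9.89, 9.04, 9.86 and 10.3 CPM in V338Y mice 2 to 5 and 7.83, 9.09 and 7.40 CPM in WT mice 2, 4 and 5. It was thus higher in V338Y in each of the 3 same-numbered pairs. Whether the numbers mark pairs is not given. V338Y mouse 3, without a WT mouse of its number, lay just below WT mouse 4. Clpx and Yme1l1 were lower in V338Y in each of the 3 pairs. With the block, Htra2 was the gene with an unadjusted p under 0.05 (0.33 ± 0.14, adjusted p = 0.262), Clpx was at -0.27 ± 0.12 (adjusted p = 0.265) and Yme1l1 at -0.23 ± 0.12 (adjusted p = 0.338). In the fit without the block the 95% intervals of the 10 genes reached from -0.81 for Clpx to 0.57 for Htra2. Markers of other cells also moved with genotype at an unadjusted p under 0.05, where 6.17% of all genes were higher in V338Y mice: 7 of 7 tested neutrophil markers, 5 of 5 erythroid markers and 3 of 8 adipocyte markers were higher, and none was after adjustment. In sum, erythroid markers stood at 158.2 to 785.9 CPM in V338Y and 97.1 to 148.4 CPM in WT mice, adipocyte markers at 264.7 to 1356 and 221.3 to 474.1 CPM, and neutrophil markers at 4.29 to 605 and 3.13 to 5.93 CPM. Their part in these values was not tested.

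The age difference itself was compared between genotypes by the interaction term. It called 0 of the 10 genes and 0% of all genes. Yme1l1 came nearest, with an additional -0.24 ± 0.12 on the log2 scale in V338Y mice (adjusted p = 0.532), and Hspd1 was at 0.24 ± 0.18 (adjusted p = 0.679). The medians of -0.39 and -0.53 given for the genotypes were not shown to differ.

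Since these proteins work in mitochondria, their transcripts were also set against 19 nuclear genes of mitochondrial content (subunits of the respiratory chain, matrix enzymes, carriers, porins and import receptors or channels). Of these, 15 fell in WT and 14 in V338Y mice, with medians of -0.54 and -0.56, beside 17.8% and 22.5% of all genes that fell. With libraries scaled to the content genes, a comparison added after the data were seen, Hspe1 was called lower in both genotypes and Htra2 higher in V338Y mice, and no other of the 10 genes was called. Hspe1 was at -0.71 ± 0.18 (adjusted p = 0.00614) in WT and -0.49 ± 0.16 (adjusted p = 0.0235) in V338Y mice, where 2.19% and 1.62% of all genes were lower and 49.1% and 48.9% higher on this scale. Hspd1 was at -0.37 ± 0.15 (adjusted p = 0.057) and -0.13 ± 0.15 (adjusted p = 0.509). Htra2 rose relative to content in V338Y mice (0.54 ± 0.18, adjusted p = 0.0238) and at 0.25 ± 0.19 (adjusted p = 0.295) in WT mice. Trap1, Lonp1 and Afg3l2 lay between 0.06 and 0.22, without passing the test.

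**Figure D3:**
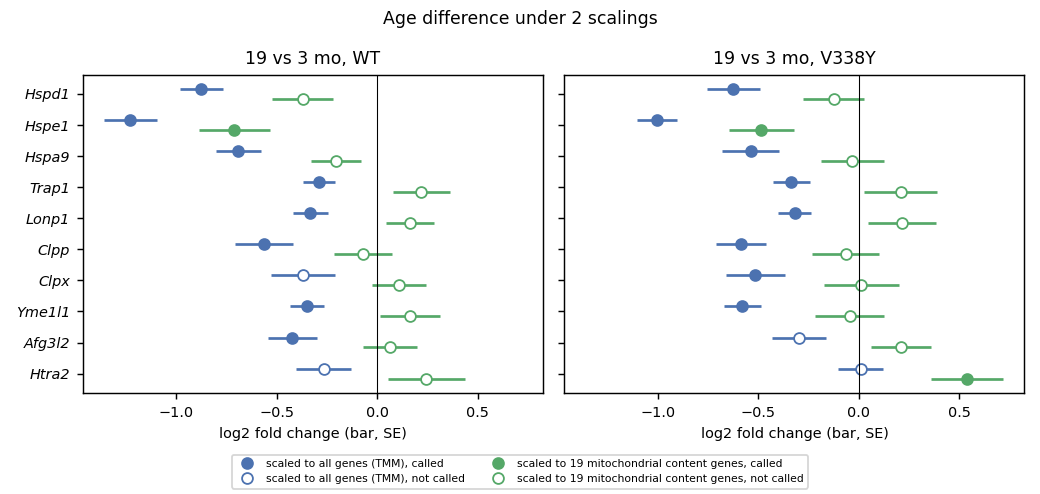
Log2 fold change of 19 against 3 months with its SE (horizontal axes) for each gene in WT and V338Y mice, scaled to all genes (TMM) or to 19 mitochondrial content genes, filled where the adjusted p was under 0.05. Hspe1 is filled on the negative side under both scalings in both genotypes, and Htra2 is filled on the positive side in V338Y mice when scaled to content.

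Ratios of counts within a mouse were taken for partners that act in one complex. Hspd1 had 3.59, 3.43, 3.12 and 3.203 times the counts of Hspe1 in young WT mice and 3.42, 3.18, 3.91 and 3.27 times in young V338Y mice. The ratio was 3.97, 4.08 and 4.78 in old WT mice and 4.19, 4.27, 3.99 and 5.32 in old V338Y mice. All 7 old mice thus exceeded all 8 young mice, narrowly (3.97 against 3.91), a description drawn from the values already tested. The same was seen for the prohibitins, with Phb2 over Phb between 1.07 and 1.25 in young and between 1.28 and 1.99 in old mice. How many other pairs of genes separate the ages in this way was not counted. For Clpx over Clpp the groups overlapped, with means of 5.38 ± 0.53 (SD, n = 4) in young WT, 4.84 ± 0.47 (n = 4) in young V338Y, 6.09 ± 0.72 (n = 3) in old WT and 5.04 ± 0.62 (n = 4) in old V338Y mice. Pmpcb over Pmpca, the subunits of the processing peptidase, stood between 0.51 and 0.66 in young, 0.44 and 0.45 in old WT and 0.45 and 0.61 in old V338Y mice. Afg3l2 against Spg7, the other subunit of the m-AAA protease, was at 0.94 ± 0.13 and 0.92 ± 0.08 at 3 months and at 0.75 ± 0.06 and 0.91 ± 0.18 at 19 months in WT and V338Y mice.

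**Figure D4:**
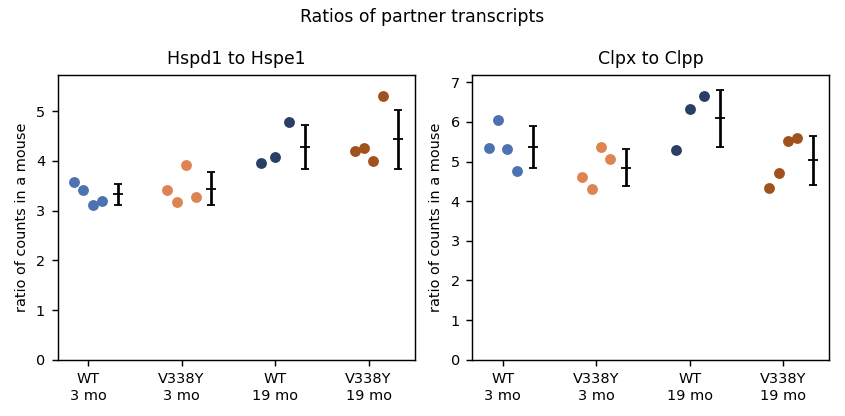
Ratio of counts within a mouse (vertical axes from 0) for Hspd1 to Hspe1 and for Clpx to Clpp in each mouse (dots) of the 4 groups, with the mean and SD of a group. The Hspd1 to Hspe1 ratio lies between 3.12 and 3.91 at 3 months and between 3.97 and 5.32 at 19 months, without overlap.

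Other genes of the pathway were read from lists by function. Counts of falling genes in these lists are smaller with total counts in place of TMM, at 4 of 12 co-chaperones, 3 of 15 proteases, 8 of 13 partners and 11 of 19 content genes in WT mice and at 3, 2, 7 and 5 in V338Y mice. On that scale 1561 of 13657 genes tested were lower in WT and 1283 of 13868 in V338Y mice. With TMM, 17.8% and 22.5% of all genes were. Among 12 co-chaperones and folding helpers, 6 fell in WT and 7 in V338Y mice from 3 to 19 months with TMM. Grpel1, a nucleotide exchange factor of HSPA9, was at -0.60 ± 0.08 (adjusted p = 0.00104) and -0.59 ± 0.11 (adjusted p = 0.0018), whereas Grpel2, the other exchange factor, named after its values were seen, passed the test in neither genotype (-0.15 ± 0.12, adjusted p = 0.353, and -0.19 ± 0.11, adjusted p = 0.172). Timm44, which holds HSPA9 at the import channel, was at -0.62 ± 0.10 (adjusted p = 0.00175) and -0.47 ± 0.12 (adjusted p = 0.0125). Hscb, which serves iron-sulfur cluster assembly, was at -0.58 ± 0.16 (adjusted p = 0.0192) in WT and -1.14 ± 0.22 (adjusted p = 0.0029) in V338Y mice. One gene of the list rose in both genotypes, Clpb, a disaggregase of the intermembrane space, at 0.32 ± 0.10 (adjusted p = 0.0286) and 0.36 ± 0.11 (adjusted p = 0.0198). It is named because its direction stood out once values were seen.

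Of 15 other mitochondrial proteases and peptidases, 4 fell in WT and 10 in V338Y mice, beside 17.8% and 22.5% of all genes. The difference between the counts of 4 and 10 was not tested. Mipep, which trims imported presequences, was at -0.54 ± 0.08 (adjusted p = 0.00176) and -0.75 ± 0.11 (adjusted p = 0.000661), and Parl, the inner-membrane rhomboid protease, at -0.29 ± 0.09 (adjusted p = 0.0326) and -0.43 ± 0.10 (adjusted p = 0.0064). Xpnpep3, also named after its values were seen, rose in V338Y mice (0.32 ± 0.12, adjusted p = 0.0467). The list's medians were -0.29 and -0.33.

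Of 13 substrates and partners of the proteases, 11 fell in WT and 10 in V338Y mice, beside 17.8% and 22.5% of all genes. Their medians were -0.53 and -0.65. Tfam, the mitochondrial DNA packaging factor degraded by LONP1, was at -0.68 ± 0.09 (adjusted p = 0.000873) and -0.95 ± 0.10 (adjusted p = 0.000183). Alas1, the first enzyme of heme synthesis, was at -1.04 ± 0.11 (adjusted p = 0.000288) in WT and -0.69 ± 0.15 (adjusted p = 0.00442) in V338Y mice. Mrpl32, a ribosomal protein matured by the m-AAA protease, was at -0.71 ± 0.13 (adjusted p = 0.00305) and -0.94 ± 0.08 (adjusted p = 7.63e-05). Smdt1, which links the calcium uniporter to its gatekeepers, was at -0.59 ± 0.12 (adjusted p = 0.00572) and -0.74 ± 0.08 (adjusted p = 0.000168).

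**Figure D5:**
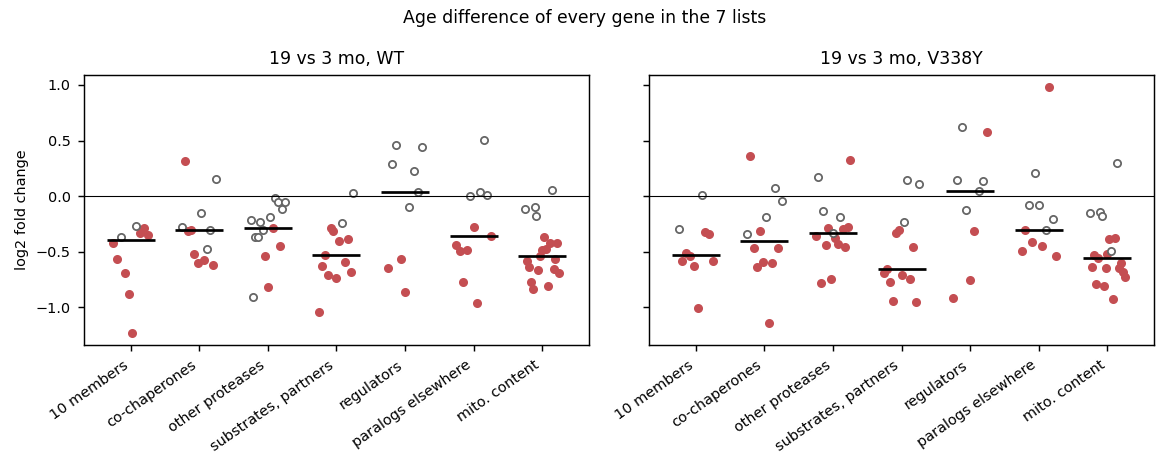
Log2 fold change of 19 against 3 months (vertical axis) of every tested gene in 7 lists (horizontal axis) in WT and V338Y mice, with filled dots where the adjusted p was under 0.05 and a line at each list's median. The lines of the 10 genes and of the content genes lie below 0 in both genotypes, at -0.39 and -0.54 in WT and at -0.53 and -0.56 in V338Y mice, and that of the regulators lies at 0.04 in both.

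Of 9 regulators of mitochondrial stress genes and biogenesis, Atf4 was the lowest in p in both genotypes. It fell by 0.65 ± 0.10 (adjusted p = 0.00204) in WT and by 0.91 ± 0.08 (adjusted p = 7.63e-05) in V338Y mice on the log2 scale. At 19 months, Atf4 measured 79.8 to 91.0 CPM in V338Y and 99.99 to 110.9 CPM in WT mice, without overlap, as did 4.55% of all genes in that direction (-0.30 ± 0.10, adjusted p = 0.534). Esrra, a nuclear receptor of mitochondrial genes, was at -0.86 ± 0.19 (adjusted p = 0.00734) and -0.75 ± 0.17 (adjusted p = 0.00554). Ppargc1a, the coactivator of mitochondrial biogenesis, rose in V338Y mice (0.58 ± 0.15, adjusted p = 0.0117) and was at 0.44 ± 0.19 (adjusted p = 0.103) in WT mice. Ddit3, which encodes CHOP, fell in WT mice (-0.56 ± 0.18, adjusted p = 0.0396) and was at -0.12 ± 0.17 (adjusted p = 0.587) in V338Y mice. Hsf1, the factor of the heat shock element, had group means between 20.5 and 23.6 CPM and passed no test.

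Paralogs that serve the cytosol, the endoplasmic reticulum and other places fell in part, 7 of 11 in WT and 5 of 11 in V338Y mice. Of all genes 17.8% and 22.5% fell. Hspa8, the constitutive HSP70 of the cytosol, was at -0.96 ± 0.16 (adjusted p = 0.00215) in WT and -0.44 ± 0.13 (adjusted p = 0.0169) in V338Y mice, and Cct2, a subunit of the cytosolic chaperonin, at -0.44 ± 0.08 (adjusted p = 0.00322) and -0.50 ± 0.10 (adjusted p = 0.00286). Htra3, a secreted relative of Htra2, rose in V338Y mice (0.98 ± 0.14, adjusted p = 0.00054) and was at 0.50 ± 0.20 (adjusted p = 0.0728) in WT mice. None of the 11 paralogs was called between genotypes at 3 months, where Hspa8 was at -0.43 ± 0.14 (adjusted p = 0.41). At 19 months 0 of all 79 genes in the 6 lists were called in edgeR between genotypes, and Prelid1, a lipid carrier of the intermembrane space degraded by YME1L1, had the lowest unadjusted p (0.39 ± 0.13, adjusted p = 0.525).

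Within groups, the 10 genes varied together only in part. Over the 15 mice, after subtraction of group means from log2 CPM, 29 of 45 pairs had a positive Pearson correlation, with a median of 0.10, against 0.03 for all genes paired with the 10. Points share libraries and their scaling, so these values are a description. Afg3l2 and Hspa9 were closest (r = 0.91), and Hspa9 ranked 7 of 14127 genes by nearness to Afg3l2. Mouse 5 of 19 months had the highest value of both genes among the old mice of either genotype. The correlation without these mice was not computed. Trap1 with Yme1l1 reached 0.79, Clpp with Clpx 0.74 and Hspd1 with Hspe1 0.67, although Hspe1 ranked only 449 among the genes nearest to Hspd1. Hspe1 with Clpx was the most negative pair (r = -0.46). By the same measure the 5 genes most like Hspd1 were Chchd10 (r = 0.94), Ercc6l (0.92), Polr2m (0.91), Sdhaf4 (0.90) and Mndal (0.90), and those most like Lonp1 were Mapkapk2 (0.91), Cipc (0.91), Ythdf2 (0.91), Gtf3c4 (0.90) and Aars (0.88).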

How the data were processed

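RNA of quadriceps was sequenced single-end from stranded libraries. The methods name a kit for mRNA and also a step that removes ribosomal RNA, so the selection of transcripts is not certain. The deposited values are expected counts per Ensembl gene, estimated by the authors with RSEM and already rounded to whole numbers. The submitters' processing notes name STAR 2.4.2a and GRCm38, whereas the methods text names another mouse build. Coordinates here are those of GENCODE on GRCm38. Estimated counts share reads between near-identical copies by a model. The pseudogenes of Hspd1, Hspe1 and Hspa9 held at most 13 counts in a mouse.

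A gene entered a test if 50% or more of the animals in either group had 10 or more counts, and groups were compared by the quasi-likelihood test of edgeR 4.0.16 (R 4.3.3) with TMM factors. Each comparison was fitted on its own mice (all 15 for the interaction), without covariates, with Benjamini-Hochberg adjustment over all genes tested and a threshold of 0.05. SE values were derived from the F statistic. The script was tested on simulated data. DESeq2 1.42.0, other scalings, other filters, a block by mouse number and leaving out each mouse were alternatives. No 2 of the 15 mice had identical counts, and all pairs within a group differed beyond sampling noise. The labels do not say that mouse numbers mark pairs. At 19 months all 3 same-numbered pairs of V338Y and WT mice deviated together (r from 0.14 to 0.41), but differently numbered mice reached r = 0.49. In the other comparisons same-numbered mice had r from -0.17 to 0.16.

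The 10 genes and the lists were chosen with earlier results of these data known. The 10 genes were described in every comparison, and of each other list up to 4 genes with the lowest p were eligible to be named. Likeness was the Pearson correlation of log2(CPM + 0.5) after subtraction of group means. Replicates are separate mice.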

Additional observations from a re-analysis of the deposited data

Results flagged for a closer look

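Among the groups of 4 mice, 30 sets of values were examined for a mouse far from the others, which chance gives in about 1 of 20. One was found: Afg3l2 in V338Y mouse 5 of 19 months, at 59.5 CPM against 39.0 to 41.8 CPM in the other 3. In the same mouse slow fiber markers summed to 8854 CPM and neutrophil markers to 605 CPM. Their part in the Afg3l2 value was not tested.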

How the results depend on the processing

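With every alternative 0 of the 10 genes were called between genotypes or by the interaction, leaving out each mouse included. In WT, 8 genes fell with age. With the replicate block it was 5 (on 2 same-numbered pairs, not known to belong together), with total counts 5 and without one mouse between 4 and 9. In V338Y, 8 fell, 2 with total counts and 7 to 9 without one mouse. The block called 9. Signs turned only for estimates that passed no test. With total counts, Yme1l1 at 3 months was -0.0035, Hspe1 and Clpp at 19 months 0.13 and 0.069, and the interaction of Trap1, Clpp and Clpx 0.15, 0.18 and 0.054. Hspa9 at 19 months was -0.0078 with RLE, -0.028 unfiltered, -0.0075 in DESeq2, -0.026 in 1 fit of all 15 mice, -0.0093 without the 10 most counted genes and -0.0032 without genes of the mitochondrial genome. Htra2 with age in V338Y was -0.0099 with RLE, -0.013 unfiltered, -0.012 in DESeq2 and -0.0049 in 1 fit. With the block, the interaction was -0.0031 for Lonp1 and 0.0038 for Clpp. Without one mouse, signs turned within these ranges. At 3 months: Htra2 -0.070 to 0.052, Clpp -0.17 to 0.022. At 19 months: Hspe1 -0.090 to 0.076, Hspd1 -0.054 to 0.16, Hspa9 -0.14 to 0.14, Afg3l2 -0.069 to 0.22, Clpp -0.17 to 0.049. With age in V338Y: Htra2 -0.051 to 0.071. Interaction: Clpp -0.13 to 0.092, Lonp1 -0.046 to 0.075, Trap1 -0.11 to 0.0037, Afg3l2 -0.013 to 0.25, Clpx -0.27 to 0.054. The cause was not tested. Counts of all genes called were 10, 66 in DESeq2 and 33 unfiltered at 3 months, and 6, 62, 14 and with the block 120 at 19 months. In WT, 4940 genes were called with age and 1975 with the block. For the interaction, 0, 26 in DESeq2, 5 unfiltered and 127 with the block were called. With total counts, lower genes were 33.84% of those called with age in WT and 19% in V338Y, against 49.29% and 47.9%. By CPM without length scaling, Yme1l1 ranked 3 in place of 7 and Hspe1 8 in place of 4.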
